A study of Homo sapiens with 6 samples.

Results

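The genes described here encode the AP-1 transcription factors and their close companions among the immediate-early genes: FOS, FOSB, FOSL1, FOSL2, JUN, JUNB, JUND, ATF3, EGR1 and IER2. They are 10 of the 19864 protein-coding genes of GENCODE release 29 on chromosomes 1 to 22 and X, and were chosen by name. For each gene, 2 kinds of peak were collected from the deposited lists of active regulatory elements. A start peak lay within 500 bp of any annotated transcript start of the gene. A distal peak lay more than 500 bp from every annotated start of any gene and within 100 kb of the body of one of the 10 genes.

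Immediate-early genes are switched on within minutes of a signal, without new protein synthesis, because their promoters hold polymerase and pre-bound factors such as serum response factor and CREB. Their products are themselves mostly transcription factors. AP-1 is a dimer of basic leucine zipper proteins in which a JUN protein pairs with another JUN, a FOS or an ATF protein. It binds sequences of the form TGANTCA, while dimers with ATF proteins also bind the cyclic AMP response element TGACGTCA. Run-on sequencing suits such genes, since it reads engaged polymerase rather than their short-lived mRNA.

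The material was K562, an established human leukaemia line grown without treatment, in 6 libraries that formed 3 groups of 2 biological replicates. In precision run-on sequencing (PRO-seq), permeabilized cells extend nascent RNA with biotin-labelled nucleotides and the RNA is captured on streptavidin beads. PRO-seq 1M followed the published protocol with 1M cells, 3 affinity purifications and 11 cycles of PCR. qPRO-seq 1M used the quick protocol on the same input, with 1 purification and 11 cycles, and qPRO-seq 250k used the quick protocol on 250k cells with 14 cycles. Each group had 1 list of peaks called by dREG, a classifier that recognises promoters and enhancers by run-on signal on both strands. With 1 list for both replicates, the spread between replicates is unknown and no difference between lists was tested. Read depth is unknown. A peak from bulk cells does not tell apart a start used in few cells from one used weakly in many.

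On these chromosomes PRO-seq 1M held 24707 peaks, qPRO-seq 1M held 38177 and qPRO-seq 250k held 15562, and values below keep this order. Although the labels call the line lymphoblastoid, 8, 9 and 8 of 9 erythroid marker genes had a start peak, against 2, 2 and 1 of 5 B lymphoid and 0, 1 and 0 of 5 T lymphoid ones. GATA1, TAL1 and KLF1 had start peaks in every list, and PAX5, CD79A, MS4A1, CD3E and CD3D in none.

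Some of the promoters that start peaks covered are shown first. The EGR1 promoter was covered in the 1M lists only, and the IER2 promoter, also covered, is not printed. The letters that the printed promoters share and those they do not share help in reading the positions that follow. RefSeq promoter windows (GRCh38.p14), from 250 bases before to 50 bases after a start, were found for 9 of the 10 genes. Printed are bases before the RefSeq start that lie in no annotated UTR, apart from a site of 30 bases in JUN, all 5′ to 3′ on the strand of the gene. The FOSL2 stretch lies downstream of that gene's outermost GENCODE start, and the JUN site lies within the transcript that GENCODE annotates. Capitals mark TGACG on either strand (the core of the cyclic AMP response element, which TGACGTCA contains), TATAAA, and the CArG box that serum response factor binds.
JUND, chr19:18281623-18281872, minus strand: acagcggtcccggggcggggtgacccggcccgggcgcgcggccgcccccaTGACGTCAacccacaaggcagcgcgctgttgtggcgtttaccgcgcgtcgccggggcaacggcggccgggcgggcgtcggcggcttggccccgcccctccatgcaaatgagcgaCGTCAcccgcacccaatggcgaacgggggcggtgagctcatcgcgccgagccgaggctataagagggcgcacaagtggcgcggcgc
JUNB, chr19:12791236-12791485, plus strand: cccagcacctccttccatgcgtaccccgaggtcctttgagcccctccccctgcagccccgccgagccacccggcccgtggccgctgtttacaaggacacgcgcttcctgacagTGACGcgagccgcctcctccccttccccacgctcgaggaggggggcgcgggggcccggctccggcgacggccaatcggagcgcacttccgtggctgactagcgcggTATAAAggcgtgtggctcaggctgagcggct
FOS, chr14:75278578-75278773, plus strand: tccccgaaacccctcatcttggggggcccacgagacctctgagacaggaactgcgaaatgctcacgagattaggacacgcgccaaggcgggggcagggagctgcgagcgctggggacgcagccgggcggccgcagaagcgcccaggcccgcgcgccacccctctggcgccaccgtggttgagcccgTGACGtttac
FOSB, chr19:45467746-45467994, plus strand: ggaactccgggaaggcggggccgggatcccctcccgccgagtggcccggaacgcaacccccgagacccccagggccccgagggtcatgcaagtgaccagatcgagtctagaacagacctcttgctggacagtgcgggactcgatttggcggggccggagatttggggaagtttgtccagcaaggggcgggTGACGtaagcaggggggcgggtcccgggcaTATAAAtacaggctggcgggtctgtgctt
FOSL2, chr2:28392608-28392801, plus strand: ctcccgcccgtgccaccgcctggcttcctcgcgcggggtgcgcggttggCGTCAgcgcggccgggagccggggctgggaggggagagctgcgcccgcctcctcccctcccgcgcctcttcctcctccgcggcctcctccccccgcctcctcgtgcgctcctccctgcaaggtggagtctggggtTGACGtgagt
EGR1, chr5:138465229-138465478, plus strand: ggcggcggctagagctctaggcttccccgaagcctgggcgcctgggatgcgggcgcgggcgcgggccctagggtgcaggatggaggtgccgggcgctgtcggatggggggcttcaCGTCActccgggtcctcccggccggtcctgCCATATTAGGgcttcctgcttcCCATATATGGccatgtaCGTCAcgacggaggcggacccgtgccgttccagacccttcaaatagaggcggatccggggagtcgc
For JUN, 30 bases around a TGACATCA element, a close relative of both AP-1 sites and marked in capitals, are shown.
JUN, chr1:58784096-58784125, minus strand: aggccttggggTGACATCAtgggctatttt

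TGACG occurred in the windows of 8 of the 9 genes with an entry (10 windows in all, since ATF3 had 2), against 24.6% of all 35116 promoter windows. The complete TGACGTCA was found in JUND alone among them, and in 1.85% of all windows. TGANTCA, the form of the AP-1 site with any base at N, occurred in FOSL2 alone, as TGACTCA 4 bases past the RefSeq start. It occurred in 7.71% of all windows, a share that counts every base at N. The looser TGACGTNA occurred in EGR1, FOSB, FOSL2 and JUND, and in 3.01% of all windows. TGACATCA occurred in JUN and in a window of ATF3, and in 2.61% of all windows. The EGR1 window held 2 CArG boxes, which 1.29% of all windows held at all. TATAAA began at -33, -30 and -31 bases from the RefSeq start of FOS, FOSB and JUNB (the FOS copy lies beyond the stretch printed), occurred in a window of ATF3, and was in 11.5% of all windows. These are matches of letters only, and the motifs TGACG, TGACGTNA and TGACATCA were added after the sequences had been seen. Start peaks covered all 300 bases of the JUN, JUNB, FOSB and FOSL2 windows in each list, while no peak of any list touched either ATF3 window.

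A start peak was present for 10 of the 10 genes in PRO-seq 1M, 10 in qPRO-seq 1M and 9 in qPRO-seq 250k. The shares among all protein-coding genes were 52.9%, 54.5% and 44.0%. In all 3 lists together, 9 of the 10 genes had one, against 43.1% of all genes. The exception was EGR1 in qPRO-seq 250k. Peaks were ranked by the score percentile, the percentage of peaks in the same list with an equal or lower score. Taking the highest-scored start peak of each gene, the members' medians were 87.3, 84.6 and 89.0, beside medians of 76.4, 80.7 and 68.2 over all genes with a start peak. When each list was reduced to its 15562 top-scored peaks, the members' medians were 79.8, 64.8 and 89.0 and those of all genes 67.5, 65.2 and 68.2, so that in qPRO-seq 1M the members then lay at the level of other genes. At percentile 90 or above stood 5, 3 and 4 members, where 23.1%, 28.4% and 17.3% of all genes with a start peak did so.

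**Figure D1:**
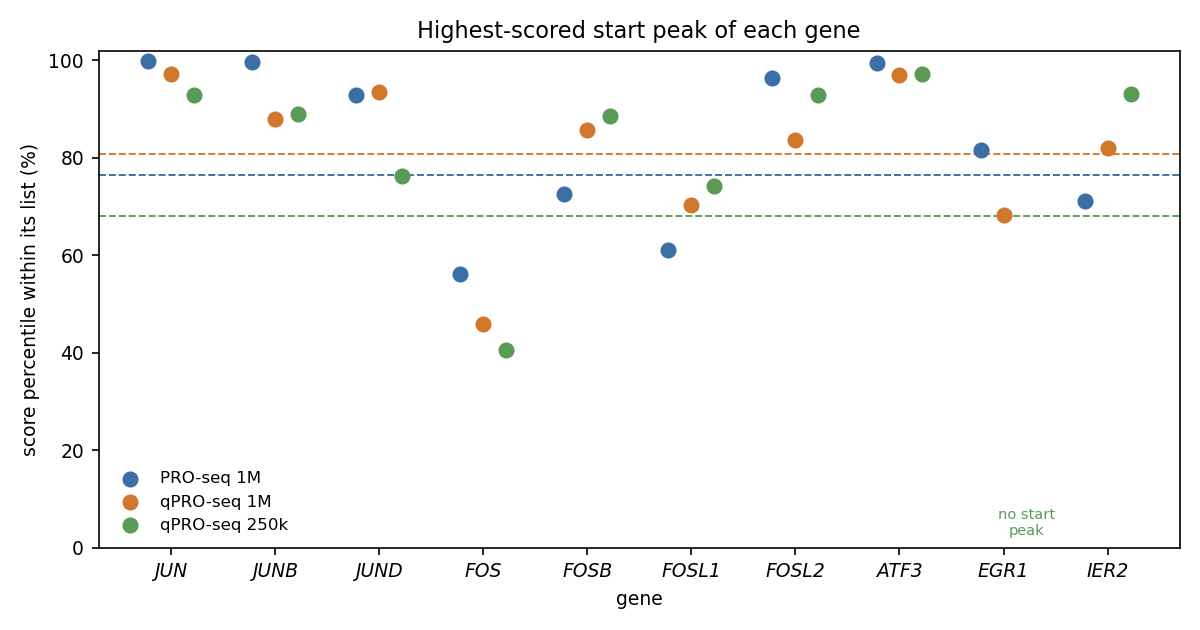
Score percentile (vertical axis, percent of peaks in the same list with an equal or lower score) of the highest-scored start peak of each gene (horizontal axis). Each point is 1 gene in 1 list, dashed lines are the medians over all protein-coding genes with a start peak (76.4, 80.7 and 68.2), and FOS is the lowest gene in each list.

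All 3 genes of the JUN family had a start peak in every list. JUN encodes c-Jun, the classical AP-1 partner of FOS, and lies on the minus strand of chromosome 1 (58780788 to 58784327). Its only start peak stood at percentiles 99.8, 97.2 and 93.0, with widths of 930, 1000 and 740 bp. The centres of these peaks lay 237, 267 and 267 bp downstream of the start in GENCODE, but at -43, -13 and -13 bp from the start in RefSeq, where negative values are upstream. The RefSeq start of JUN is 280 bp downstream of the GENCODE one, and the peaks were thus centred beside the RefSeq start in every list. JUNB, whose product is a weaker activator than c-Jun, lies on chromosome 19 (12791496 to 12793315) and was likewise marked by a single start peak, at percentiles 99.6, 87.9 and 89.0. In both 1M lists the JUNB peak began at the same base, 12791131, and the centres of the 3 peaks lay within 40 bp of each other.

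JUND encodes the subunit that most cell types express without stimulation (chromosome 19, 18279760 to 18281622, minus strand). The highest start peak of JUND stood at percentiles 92.9, 93.6 and 76.4, lowest in qPRO-seq 250k. JUND had 3, 2 and 3 start peaks over 2 annotated starts, where JUN and JUNB each had 1 over a single start. A further strong peak lay at the other end of this short gene and overlapped its 3′ untranslated region. It was centred 1.21 kb from the nearest start in qPRO-seq 1M (18279321 to 18280220) and stood at percentiles 80.8, 94.7 and 87.6. In qPRO-seq 1M and qPRO-seq 250k this gene-end peak ranked above the highest start peak of JUND, and in PRO-seq 1M below it.

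The FOS family was more mixed. FOS encodes c-Fos, which cannot pair with itself and needs a JUN partner, and lies on chromosome 14 (75278774 to 75282230). The highest start peak of FOS ranked lowest among those of the 10 genes in each list, at percentiles 56.1, 45.9 and 40.6. These lay below the medians of all genes. So did the highest start peaks of FOSB, FOSL1 and IER2 in PRO-seq 1M, and of FOSL1 and EGR1 in qPRO-seq 1M. FOS had 2, 3 and 3 start peaks. A peak centred at 75278790, -38 bp from the RefSeq start, occurred in all 3 lists at the same centre, at percentiles 56.1, 36.8 and 40.6. A neighbour centred at 75278440, 75278450 and 75278470 stood at percentiles 25.0, 45.9 and 21.7, and was the higher of the pair in qPRO-seq 1M only. Inside the gene, a peak at 75279281 to 75279710 in qPRO-seq 1M and at 75279501 to 75279720 in qPRO-seq 250k had no counterpart in PRO-seq 1M.

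FOSB (chromosome 19, 45467995 to 45475179) encodes a close relative of c-Fos. Its highest start peak stood at percentiles 72.5, 85.7 and 88.7, and its centres spanned 50 bp across lists. FOSB had 4, 4 and 2 start peaks over 8 annotated starts, and the peak centred at 45469880 and 45469920 in the 1M lists was absent from qPRO-seq 250k. FOSL1 encodes FRA1, a subunit associated with growth and invasion of epithelial cells (chromosome 11, 65892049 to 65900573, minus strand). The start peak of FOSL1 stood at percentiles 61.0, 70.4 and 74.3. FOSL2 encodes FRA2 and lies on chromosome 2 (28392448 to 28417312). Its percentiles were 96.3, 83.6 and 92.8, so that FOSL2 ranked highest of the FOS family except in qPRO-seq 1M, where FOSB did. The centres of the FOSL2 peaks lay -88, -98 and -168 bp from its RefSeq start, which is 410 bp downstream of the GENCODE gene start.

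ATF3, a stress-induced member of the ATF family that pairs with JUN proteins, lies on chromosome 1 (212565334 to 212620777). Its highest start peak stood at percentiles 99.5, 97.1 and 97.2, and ATF3 was the only member besides JUN above percentile 90 in every list. Of the 7 annotated starts of ATF3, the same 3, from 212608628 to 212608915, had a peak within 500 bp in each list. The outermost start, at 212565334, had its nearest peak edge 5934, 1677 and 5934 bp away. The RefSeq promoter windows of ATF3 lie at 2 other starts, which is why no ATF3 promoter is printed here.

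EGR1 and IER2 are immediate-early genes outside AP-1. EGR1 encodes a zinc finger factor induced through serum response factor and lies on chromosome 5 (138465490 to 138469315). In both 1M lists 2 adjacent start peaks were called. The peak centred at 138465440 and 138465450 beside the start, stood at percentiles 53.2 and 51.3. The other, upstream and centred at 138465020 and 138465050, stood higher, at percentiles 81.7 and 68.3. The qPRO-seq 250k list had no peak at the start itself, and its nearest peak (138464571 to 138464920, percentile 64.1) ended 570 bp before it. That peak counts as distal here, and with a window of 1000 bp it becomes a start peak, which gives all 10 genes one in every list. It overlapped the upstream EGR1 peak of both 1M lists, but not their peak at the start. It also overlapped another qPRO-seq 1M peak (138464551 to 138464850, percentile 35.0), which counts as distal. The centre of that peak, at 138464770, was the nearer to the qPRO-seq 250k centre at 138464710.

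IER2 encodes a small nuclear protein of the early response (chromosome 19, 13150415 to 13154908). Its highest start peak stood at percentiles 71.2, 82.1 and 93.0, but these were not the same element. In PRO-seq 1M the higher peak was centred at 13151750, near the inner annotated start at 13151975, and the peak at the outer start (centre 13150470) stood at percentile 54.8. In the quick lists the order was opposite, with the outer peak, centred at 13150440 in both, at percentiles 82.1 and 93.0 and the inner peak at 60.7 and 71.4. Both elements were present in all 3 lists. Further into IER2, peaks at percentiles 57.6, 69.9 and 64.1 (13152711 to 13153180 in qPRO-seq 1M) lay 826, 736 and 686 bp from its nearest start. Of these, the qPRO-seq 1M peak counts among the distal peaks of IER2, and the others count neither as start nor as distal peaks, since they lay within 500 bp of a start of another gene.

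**Figure D2:**
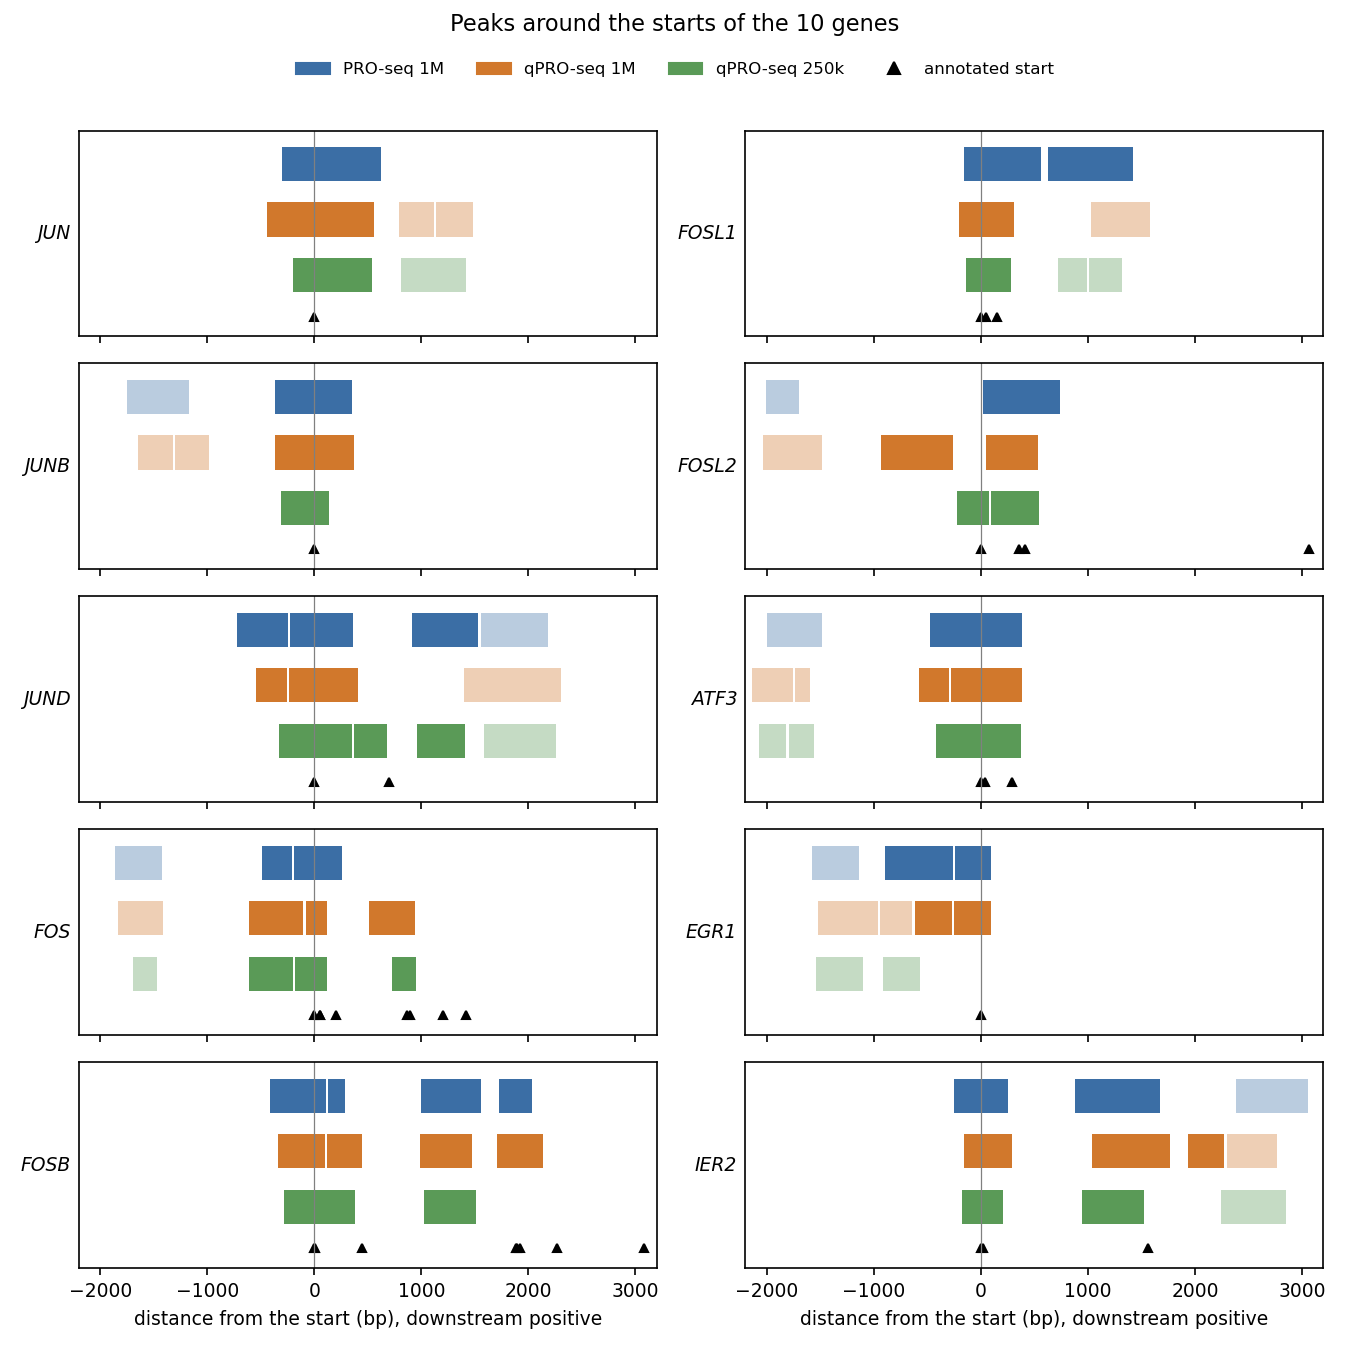
Peaks within 2000 bp of an annotated start of each gene, by distance in bp from its outermost annotated start (for ATF3, from the start beside its highest peak), downstream positive. Bars are peak intervals of the 3 lists, full colour marks peaks within 500 bp of a start of the gene and pale colour other peaks, and triangles mark annotated starts. The EGR1 panel has no qPRO-seq 250k bar at the start, and JUND shows peaks at both ends of the gene.

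Across the 10 genes, 19, 21 and 16 start peaks were called. Peaks of the 3 lists were joined wherever they overlapped by at least 1 bp, and 19 joined regions held a start peak. Of these, 15 had a peak in all 3 lists, 3 in 2 lists and 1, upstream of FOSL2, in qPRO-seq 1M alone. The 15 include a region each of EGR1, FOSL1, JUND and IER2 that is not shared by start peaks alone. There, at least 1 list contributed only peaks more than 500 bp from the gene's starts. Over the genome, 52.5% of the 17370 start-near regions had a peak in all 3 lists. That set is wider, since it takes in starts of genes of every type and not of protein-coding genes alone. At least 2 start peaks were called for 6, 7 and 5 members, where 49.6%, 61.6% and 32.7% of all genes with a start peak had as many. The centres of the highest start peaks lay within 80 bp of each other across lists for 7 of the 10 genes, EGR1 counted over 2 lists. The spans were 160 bp for ATF3, 340 bp for FOS and 1310 bp for IER2, and in FOS and IER2 the highest peak was a different element in different lists.

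Near the limit of 500 bp, the assignment of peaks mattered for FOSL1 as it did for EGR1. A PRO-seq 1M peak inside FOSL1 (65899151 to 65899950, percentile 60.5) lay 469 bp from the nearest start and counted as a start peak. Peaks of the other lists that overlapped it lay 569 to 879 bp away and counted as distal.

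Distal peaks within 100 kb of the 10 genes numbered 51 in PRO-seq 1M, 76 in qPRO-seq 1M and 30 in qPRO-seq 250k. The median per gene was 3.5, 7.0 and 3.0, with ranges of 2 to 14, 3 to 16 and 1 to 6. All protein-coding genes had medians of 1.0, 2.0 and 0, and the 8566 genes with a start peak in all 3 lists had medians of 1.0, 3.0 and 0. The order of the lists followed their length. With 15562 peaks in each, the members' windows held 26, 23 and 30 distal peaks, beside 3643, 5082 and 4125 in the whole lists. At that size qPRO-seq 1M had the fewest in the members' windows and the most over the whole list. The members' distal peaks stood at median percentiles of 37.4, 36.1 and 27.3, beside 33.9, 39.6 and 35.2 for all distal peaks of each list, so they ranked about as other distal peaks in the 1M lists and lower in qPRO-seq 250k.

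**Figure D3:**
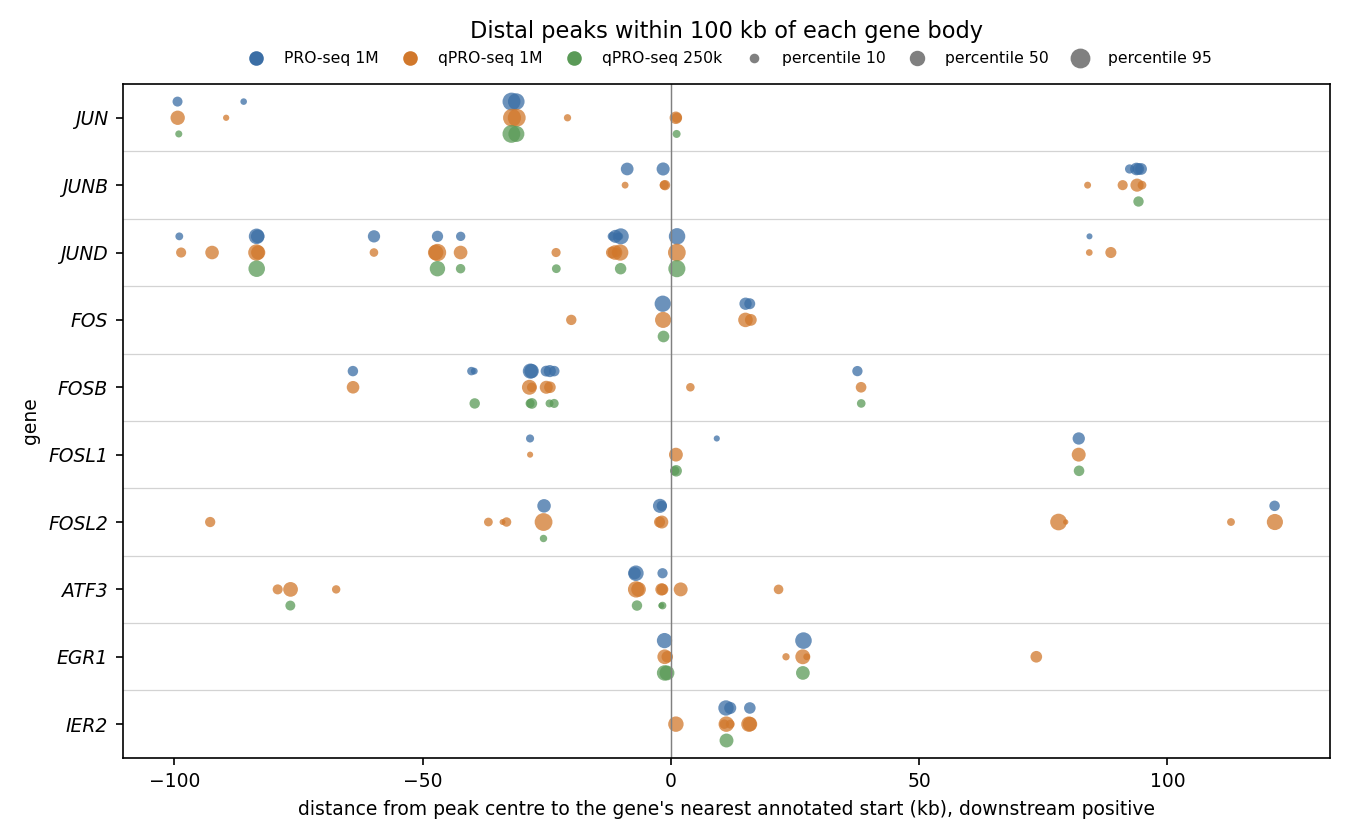
Distal peaks within 100 kb of the body of each gene (vertical axis), by distance in kb from the peak centre to the nearest annotated start of that gene, downstream positive. Each point is 1 peak, colour gives the list and the area grows with the score percentile. The pair of large points left of JUN, 31.1 and 32.1 kb upstream, is present in all 3 lists.

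The highest-ranked distal peak of the set in each list lay upstream of JUN. There, a pair of abutting regions in an intron of the long noncoding RNA gene LINC01135 lay 31.1 and 32.1 kb from its start. The outer one (chromosome 1, 58815811 to 58816740) stood at percentiles 97.5, 97.8 and 95.4. The inner one (58815161 to 58815810) stood at 82.5, 97.0 and 76.2. In qPRO-seq 1M and qPRO-seq 250k the outer region ranked above the start peak of JUN, and in PRO-seq 1M below it. All 7 distal regions in the window of JUN were nearer to its start than to that of any other protein-coding gene, and 3 of them had a peak in all 3 lists. A region inside JUN (58782841 to 58783540) had peaks in both quick lists, at percentiles 43.0 and 12.6, and none in PRO-seq 1M.

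The window of JUND held 14, 16 and 6 distal peaks, the most in both 1M lists and as many as that of FOSB in qPRO-seq 250k. Of all protein-coding genes, 99.3% had as few or fewer in qPRO-seq 1M. The window held 10 protein-coding genes, its own included. The distal peaks include the gene-end peak of JUND described above, which was the highest-ranked distal peak of this window in each list. Its region also held a start-near peak. Counting only regions made wholly of distal peaks, which leaves it out, there were 11 regions. Of these, 4 were in all 3 lists and 5 in both 1M lists alone. Of the 11 regions, 3 were nearest to a start of JUND and the rest to starts of other genes. A run of 3 intergenic regions began 10.2 kb upstream of JUND (18291341 to 18293790), and its first region stood at percentiles 76.1, 78.5 and 34.7. Another intergenic region, 47.0 kb upstream (18328251 to 18329290), stood at 33.3, 90.6 and 69.5 and lay nearer to the start of another gene, LSM4. At 83.4 kb (18364371 to 18365380), a region overlapping an exon of PGPEP1 stood at 71.6, 80.2 and 81.5 and had the third highest of the lowest percentiles over the lists, after the pair upstream of JUN. JUNB had 6, 7 and 1 distal peaks. The highest in qPRO-seq 1M lay 93.9 kb away in an exon of KLF1, which encodes an erythroid transcription factor, and its region stood at percentiles 43.8, 48.5 and 26.8.

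FOS, the only protein-coding gene in its own window, had 3, 4 and 1 distal peaks. The element 1.56 kb upstream of FOS (75276911 to 75277360) occurred in all 3 lists at percentiles 78.6, 76.8 and 36.3. In both 1M lists it ranked above the highest start peak of FOS, while in qPRO-seq 250k it ranked below. Downstream, at 15.0 and 16.0 kb, regions in an intron and an exon of LINC01220 had peaks in the 1M lists alone. FOSB had 9, 7 and 6 distal peaks in a window with 9 protein-coding genes, its own included, and none of its 9 distal regions was nearest to the FOSB start. The highest of them in qPRO-seq 1M lay 28.2 kb upstream in an intron of ERCC1 (45439171 to 45440100), at percentiles 67.0, 64.9 and 29.6. FOSL1 had 3 distal peaks in each list, in a window with 14 protein-coding genes, its own included. In the quick lists these include the peaks inside FOSL1 described above. None of its 3 wholly distal regions was nearest to the FOSL1 start. The leading region, 82.1 kb downstream (65817821 to 65818540), stood at 41.3, 55.5 and 28.4 and lay nearest to the start of CFL1.

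FOSL2 had 4, 11 and 1 distal peaks, and 7 of its 10 distal regions were found in qPRO-seq 1M alone, the largest such number of the 10 genes. The leading one, intergenic and 25.6 kb upstream (28366461 to 28367080), occurred in all 3 lists, at percentiles that differed widely: 51.6, 95.9 and 9.54. A region centred 2.01 kb upstream of FOSL2 had peaks in both 1M lists, at 56.8 and 47.0, and none in qPRO-seq 250k.

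ATF3 had 3, 9 and 4 distal peaks. Its highest in qPRO-seq 1M (212557971 to 212558550) lay 6.99 kb upstream of the outermost ATF3 start in an exon of the gene AC092803.2, and its region stood at percentiles of 71.0, 79.6 and 27.3. That region also contained a peak near an annotated start of another gene. Counting only regions made wholly of distal peaks, the leading one lay 76.6 kb upstream (212488401 to 212488970), with percentiles 63.1 and 24.0 in the quick lists and no peak in PRO-seq 1M. EGR1 had 2, 6 and 3 distal peaks. A region 26.6 kb downstream of EGR1 (138491821 to 138492400) stood at 82.0, 64.7 and 53.4, and a region 1.26 kb upstream (138463911 to 138464530) at 68.3, 62.9 and 69.9. Both were in all 3 lists. IER2 had 3, 6 and 1 distal peaks, and the 3 intergenic distal regions lay between 11.1 and 15.9 kb downstream of an IER2 start. The nearest of them (13162621 to 13163470) was in all 3 lists, at 69.3, 70.2 and 55.1.

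The distal peaks formed 63 regions made of distal peaks only. Of these, 25 were intergenic, 27 intronic and 11 exonic, and 27 were nearest to a start of the member gene. In all 3 lists a peak was present for 17 regions (27.0%, Wilson 95% interval 17.6 to 39.0), beside 16.2% of the 15085 distal regions within 100 kb of any protein-coding gene. In qPRO-seq 1M alone there were 20 (31.7%, 21.6 to 44.0), beside 55.2%. Both 1M lists alone shared 16 regions (25.4%, beside 18.1%), both quick lists 4 (6.35%, beside 3.1%), and 1 was missing from qPRO-seq 1M only (1.59%, beside 0.325%). PRO-seq 1M alone held 5 (7.94%, beside 5.73%). The highest-ranked of these lay in an intron of VASP near FOSB (45508331 to 45509010, percentile 26.3), in an exon of AC020934.2 near JUNB (12883821 to 12883960, 19.8) and in an intron of ERCC1 near FOSB (45427691 to 45428060, 15.4). No region was found in qPRO-seq 250k alone, where a count of 0 allows a share of up to 4.76% (3 counts of 63) and the share beside it was 1.29%. At equal list sizes 10 of 35 regions (28.6%) were in all 3 lists, beside 27.2%, so the excess over other distal regions seen with the full lists was not seen there. With centres required to lie within 100 bp, 14 of 97 regions (14.4%) were in all 3 lists, beside 12.4%. Intervals cover counting error only, and neighbouring regions are not independent.

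**Figure D4:**
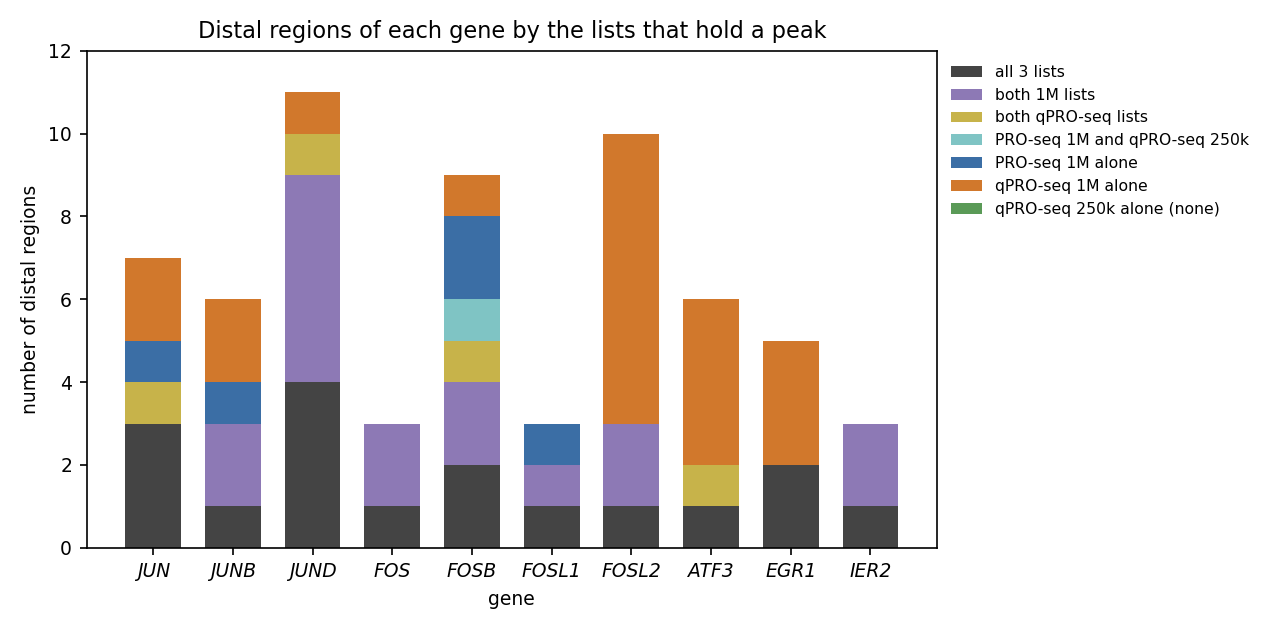
Number of distal regions (vertical axis) within 100 kb of each gene (horizontal axis), divided by the lists that hold a peak. Each bar adds up to the regions of 1 gene, from 3 for FOS, FOSL1 and IER2 to 11 for JUND, and every gene has at least 1 region in all 3 lists.

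The members' distal peaks in all 3 lists ranked higher within each list than their other distal peaks. Whether this is particular to these genes was not tested. Among the members' distal peaks, those in regions shared by all 3 lists (26, 31 and 25 peaks) stood at median percentiles of 51.6, 62.1 and 29.6. The others (25, 45 and only 5 peaks) stood at 27.4, 25.0 and 16.9. The shared peaks here include 4, 8 and 6 in regions that also held a start-near peak. At the edge of the windows, the outermost distal peaks lay 99.5, 99.5 and 99.0 kb from the gene (FOSL2, FOSL2 and JUN, at percentiles 27.8, 77.3 and 7.83), and the nearest ones beyond it lay 106, 106 and 107 kb away.

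Other genes of the pathway were read from a list of 43 genes. A start peak was present for 36, 38 and 34 of them, and for 34 in all 3 lists, against the 52.9%, 54.5%, 44.0% and 43.1% of all genes given above. Median percentiles of their highest start peaks were 83.9, 78.9 and 59.8. A start peak was called in every list for all 6 genes of the serum response factor arm, all 8 kinases and 7 of 10 AP-1 partners and relatives. Exceptions were BATF3 and MAFK, with start peaks in the 1M lists only (percentiles 26.5 and 53.8 for BATF3, 29.2 and 28.6 for MAFK), and BATF, with one in qPRO-seq 1M only (10.2). Of 19 further immediate-early genes, 13 were marked in every list. EGR2, a relative of EGR1, had one in qPRO-seq 1M only, at percentile 22.4, and EGR4, IER3, ARC, PTGS2 and PLK2 had none in any list.

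The 3 pathway genes whose percentiles over the 3 lists lay nearest to the members' medians were BTG2 (85.9, 90.3 and 92.2), DUSP1 (91.6, 85.5 and 83.4) and MAP2K1 (82.9, 83.3 and 83.2). BTG2 encodes an antiproliferative protein, DUSP1 a phosphatase of MAP kinases and MAP2K1 the kinase MEK1. Euclidean distances were 6.70, 7.14 and 7.41 percentile points over 3 lists, a small number of values that share 1 cell line. IER5, a relative of IER2, had the most distal peaks of the pathway list in qPRO-seq 1M, 19, and BTG2 was also among the leading genes with 10. By comparison, JUND had 16 and FOSL2 11.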

How the data were processed

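The values analysed were 3 deposited peak lists, 1 per group of 2 K562 libraries, which the labels name for both replicates and call dREG peaks. Per the submitters' processing notes, the tools included fastp 0.20.0, Bowtie2 2.3.5.1, deepTools 3.1.3 and UMI-tools, with build hg38 (GRCh38). The version and thresholds of dREG and the pooling of replicates are not given in the sources used here. The score of each peak, as the authors deposited it, has no fixed unit and was only ranked within its list. The p-value deposited by the authors for each peak lay between 0 and 0.05, with adjustment not stated, and served only as a filter in an alternative. The other deposited columns hold start, end and centre positions, on a grid of 10 bp. Starts are printed counted from 1.

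Starts and gene bodies came from GENCODE release 29 (GRCh38) on chromosomes 1 to 22 and X, and promoter sequences from RefSeq (GRCh38.p14). Analysis used Python 3.11.15, pandas 2.3.3, numpy 2.4.6 and scipy 1.17.1, and its rules were checked on simulated data. Peaks of the lists were joined where they overlapped by at least 1 bp. A region with any start-near peak was not counted as distal, which left out 4, 8 and 6 distal peaks. No test was made, since each group has 1 list and the depth is unknown. The members, the pathway list and the motifs were chosen with earlier results of these data known. All 10 genes were named, and distal regions and pathway genes by rule: the region of the top qPRO-seq 1M distal peak of each gene, the 3 regions in all lists with the highest lowest percentile, the 3 top regions of PRO-seq 1M or qPRO-seq 250k alone, and pathway genes nearest to the members' medians, in 1 or 2 lists only, or with most distal peaks, of which 1 gene is not reported here. The genes with no start peak and the marker genes named were picked after their values were seen, as were other regions described for single genes.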

Additional observations from a re-analysis of the deposited data

How the results depend on the processing

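The main results were recomputed with 1 choice changed at a time, which gave 78 alternative values, several for each choice. Of these, 61 changed little (for numbers of peaks, genes or regions, by less than 1.5 times) and 17 moved further. The number of genes with a start peak stayed within 1.5 times under every alternative run, from 8 to 10. The members' median percentile moved to 82.7 in PRO-seq 1M with a start window of 200 bp. Ranked among start-near peaks only, the medians were 83.5, 78.7 and 86.9. Equal list sizes gave 79.8 in PRO-seq 1M and 64.8 in qPRO-seq 1M, by construction, since low-scoring peaks leave the longer lists. For the same reason the distal peaks fell to 26 in PRO-seq 1M and 23 in qPRO-seq 1M, and the regions in all 3 lists to 10. Stricter choices of peaks also lowered the distal peaks by construction: 15, 30 and 9 at or above the median score, 18 in qPRO-seq 250k with a p limit of 0.01, and 26 and 47 in the 1M lists after merging within 500 bp. A window of 200 kb raised the regions in all 3 lists to 26. Requiring centres within 100 bp put 14.4% of the regions in all 3 lists, beside 12.4% of those near any protein-coding gene. No paired analysis was possible because each list stands for both replicates, and no replicate could be left out. Peaks below the reach of each list's unknown depth are not seen.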
